A study of Mus musculus with 16 samples.

Results

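Pou5f1, Sox2, Nanog, Klf4, Utf1, Sall4, Zfp42 and Esrrb, 8 genes for transcription and chromatin factors of pluripotent stem cells, were followed by name through the RNA libraries of cultured mouse male germline stem cells. They are 8 of the 27128 genes listed in each library, and all 8 passed a filter on low values (a mean of at least 1 CPM, counts rescaled for library size) that 14301 genes passed. The 12 RNA libraries formed 4 experiments with 1 library in each group, so the spread between replicates is unknown and no p-value was computed. The sequence of comparisons was feeder removal, Matrigel density, sorting on a reporter of Pou5f1 and inhibition of the histone methyltransferase G9a. The labels also list 4 ATAC-seq libraries, which were not analysed here.

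All cells came from B6;CBA-Tg(Pou5f1-EGFP)2Mnn/J mice at postnatal day 5.5. In this strain GFP is driven by regulatory sequence of Pou5f1, the gene of OCT4. Germ cells positive for the reporter and negative for KIT were sorted and grown in StemPro-34 SFM with GDNF, bFGF and EGF, with a passage each week. In the feeder-removal experiment, day 0 was on mouse embryonic fibroblast (MEF) feeders, and days 4 and 9 were counted from transfer to Matrigel, a basement membrane extract. In the density experiment, Matrigel was laid at 0.1 µg/cm2 for the culture called epithelial-like and at 10 µg/cm2 for the one called mesenchymal-like. The sorted experiment divided cells grown at 10 µg/cm2 by flow cytometry into low, mid and high fractions of GFP, named GFP-low, GFP-mid and GFP-high here. In the inhibitor experiment, cells on MEF feeders received DMSO, the solvent, or UNC0638 at 0.5, 1 or 2 µM, and the labels give 48 hours for UNC0638. UNC0638 is a small-molecule inhibitor of G9a (Ehmt2) and the related GLP (Ehmt1). The labels do not say how many mice or cultures went into a library.

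OCT4, SOX2 and NANOG form the core of the factor network that keeps embryonic stem cells pluripotent. KLF4 and ESRRB belong to the naive layer of that network, and OCT4, SOX2 and KLF4 are among the factors that reprogram somatic cells. Male germ cells after birth keep OCT4 in undifferentiated spermatogonia while Nanog is normally silent, and SALL4 and UTF1 are also used as markers of spermatogonial stem and progenitor cells. Germline stem cells can convert to a pluripotent state in culture, so the set of these genes that is transcribed is a common description of such cultures.

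Library totals ranged from 4335185 to 12019651 estimated counts. A floor of 3 counts was set for visible levels, equal to between 0.238 and 0.724 CPM. The cultures carried the labelled germ cell identity: of 19 germ cell markers measured, 0 were at 0 in a library, 18 were at 10 TPM (transcripts scaled to length and to a fixed total) or more in every library, and the summed level was 2639 to 6418 TPM. Markers of other cells differed between libraries. The summed level of 12 myeloid genes was 2676 TPM in GFP-low, 2432 in GFP-mid and 356.9 in GFP-high, and 15.08 to 64.2 TPM in the 9 unsorted libraries. The summed level of 20 fibroblast genes was 1874 TPM in the mesenchymal-like culture and 85.17 TPM in the epithelial-like one, and 1183 TPM with DMSO against 150.7 to 405.8 TPM with UNC0638. Lists for somatic testis cells and endothelium summed to 8.84 to 49.47 TPM and 5.05 to 9.37 TPM. In bulk RNA, fewer cells of a type and less RNA per cell cannot be told apart.

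**Figure D1:**
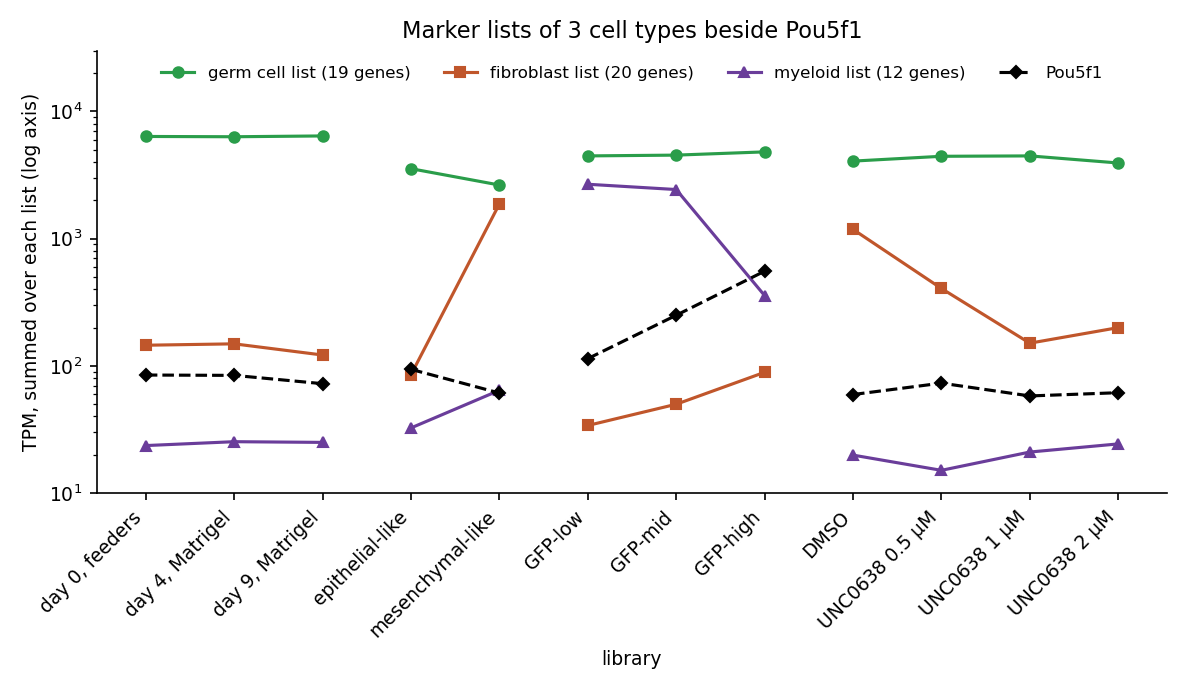
Summed TPM of the germ cell, fibroblast and myeloid marker lists and the TPM of Pou5f1 in each of the 12 libraries, 1 library per group, on a log axis. The myeloid sum is high in the GFP-low and GFP-mid fractions, while Pou5f1 is highest in GFP-high at 554.77 TPM.

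The 8 genes fell into 3 sets by level. Sall4, Pou5f1 and Zfp42 were on, defined as 10 TPM or more, in 12 of 12 libraries. Utf1, Klf4 and Sox2 were on in 9, 2 and 3 libraries and low, defined as 1 to under 10 TPM, in the others. Nanog was low in 12 libraries, and Esrrb was low in 7 and at trace level, above 3 counts but under 1 TPM, in 5. With the same limits on CPM, which is not per length, Klf4, Sox2 and Utf1 were on in 10, 5 and 6 libraries and Esrrb was at trace level in 0. None of the 8 was off, defined as 3 counts or fewer, in any library. For comparison, 29.5% to 32.7% of all genes of a library were on and 39.4% to 48.0% were off.

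Sall4, a zinc finger factor needed for the maintenance of spermatogonial progenitors, was the most abundant of the 8 in 10 of the 12 libraries and the least variable. Its level had a minimum of 95.67, a median of 117.5 and a maximum of 132.40 TPM, a maximum-to-minimum ratio of 1.38. Pou5f1 had a minimum of 57.97, a median of 78.61 and a maximum of 554.77 TPM, and exceeded Sall4 only in GFP-mid and GFP-high. Zfp42 (Rex1), a zinc finger gene used as a marker of naive embryonic stem cells, had a minimum of 26.48, a median of 34.28 and a maximum of 51.26 TPM. The TPM percentile of these 3 genes among all genes of a library was at least 80.33, the lowest value of Zfp42.

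Utf1, a chromatin-associated factor of embryonic stem cells and spermatogonia, had a minimum of 3.24, a median of 14.8 and a maximum of 26.34 TPM. The lowest and the highest Utf1 levels were both in the sorted experiment, in GFP-low and GFP-high. Klf4, a Krüppel-like factor also expressed by fibroblasts and myeloid cells, had a minimum of 4.18, a median of 7.095 and a maximum of 12.17 TPM. Sox2, the usual partner of OCT4 on DNA, had a minimum of 1.09, a median of 4.64 and a maximum of 21.33 TPM, and the 3 libraries in which it was on were the 3 sorted fractions. Its maximum was 19.6 times its minimum, the widest span of the 8 genes. Sox2 lies within the longer non-coding gene Sox2ot, and whether reads of that transcript were counted for Sox2 was not tested. Nanog, the homeodomain factor of the core network, had a minimum of 1.16, a median of 1.87 and a maximum of 7.01 TPM. Its estimated count was not whole in 11 of 12 libraries, which is how reads shared with near-identical sequences appear in such tables, so its low values are uncertain. Esrrb, an orphan nuclear receptor of naive stem cells, had a minimum of 0.55, a median of 1.48 and a maximum of 2.70 TPM. Nanog and Esrrb therefore had mapped reads in all 12 libraries, from 7 to 68 counts for Nanog and from 10 to 74 for Esrrb, at levels far below Pou5f1.

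**Figure D2:**
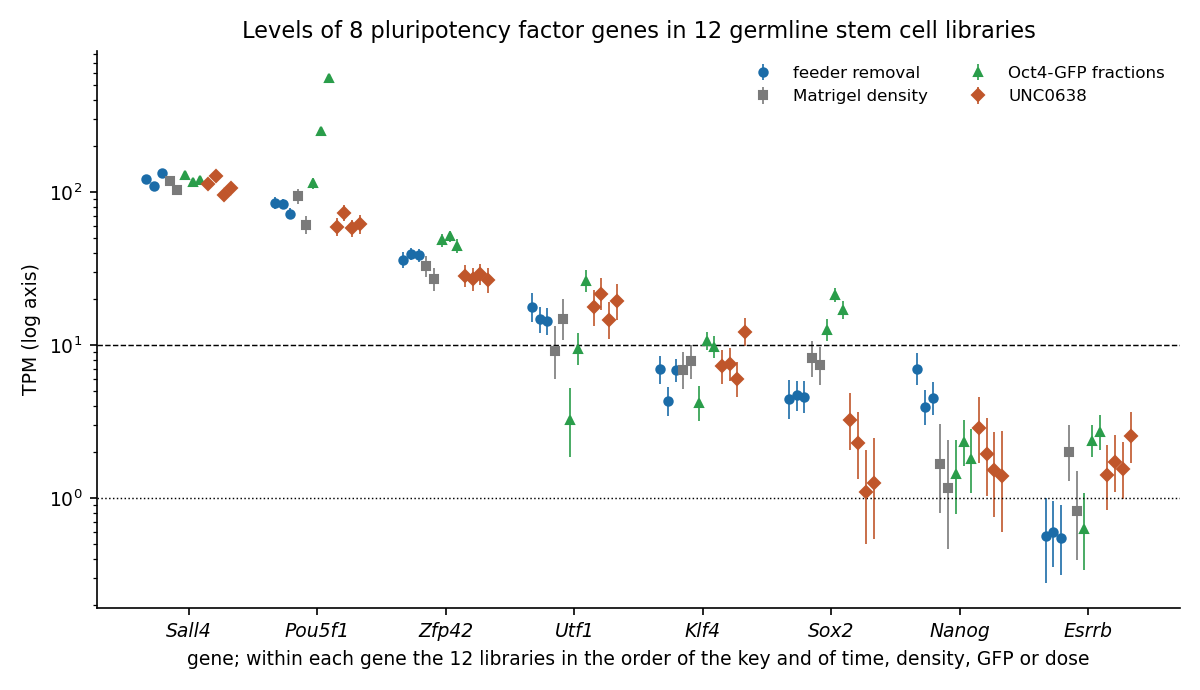
TPM of the 8 genes on a log axis, 12 libraries per gene in the colours of the 4 experiments; bars are 95% counting intervals, and the dashed and dotted lines mark 10 and 1 TPM. Sall4, Pou5f1 and Zfp42 stay at 26.48 TPM or more, Sox2 passes 10 TPM only in the sorted fractions, and Nanog and Esrrb stay under 10 TPM.

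Of the other genes of the network, 28 were listed, 27 were matched to the tables and 20 passed the filter. Abundant ones included Dppa5a at 96.2 to 222.5 TPM, Dppa4 at 55.19 to 93.66 TPM and Dppa3 (Stella) at 23.52 to 78.72 TPM, all markers shared by pluripotent and germ cells. Stat3, the transducer of LIF signals, was at 101.5 to 321.2 TPM, and the RNA-binding factor Lin28a at 14.93 to 59.42 TPM. Several other genes typical of embryonic stem cells were at or near 0 in most libraries. Nr0b1 and L1td1 had at most 3 counts in any library. Fgf4 had at most 4 counts and was at 0 in 10 libraries, and Prdm14 had at most 7 counts and was at 0 in 10. Tdgf1 and Eras had at most 15 and 7 counts, both at day 0, where they reached 1.77 and 1.58 TPM against 0.56 for Esrrb. Each was at 3 counts or fewer in 8 libraries. Of 14 genes of the primed, epiblast-like state, 6 passed the filter, and 1 or 2 of the 14 were at 10 TPM or more in each library. Pou3f1 was at 3.71 to 29.31 TPM, while Otx2 had at most 3 counts in any library. Dppa2 was at 2.71 to 8.66 TPM. The germline cultures therefore held a partial set of network transcripts, with Sall4, Pou5f1, Zfp42, Dppa3, Dppa4 and Dppa5a abundant, and with Nanog and Esrrb low.

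Promoter sequence is shown for Pou5f1 and Utf1, which were higher with the reporter at both steps of the sort, and for Zfp42, which was not. By RefSeq on GRCm38.p6, Pou5f1 spans positions 35506032 to 35510777 of chromosome 17, Utf1 spans 139943856 to 139945112 of chromosome 7 and Zfp42 spans 43295067 to 43307009 of chromosome 8. Sox2 spans 34649995 to 34652461 of chromosome 3, Klf4 spans 55527137 to 55532475 of chromosome 4 and Nanog spans 122707489 to 122714633 of chromosome 6. Sall4 spans 168748332 to 168767201 of chromosome 2, and Esrrb, the longest of the 8, spans 86361117 to 86521628 of chromosome 12. RefSeq promoter windows of GRCm38.p6 (250 bases before the start site and 50 after) were found for 7 of the 8 genes, in 10 windows. Below are the 250 bases upstream, written 5′ to 3′ along the gene, for Pou5f1 (chr17:35505782-35506031, plus strand), Utf1 (chr7:139943606-139943855, plus strand) and Zfp42 (chr8:43307010-43307259, minus strand). Capitals mark every match to the motifs searched.
Pou5f1: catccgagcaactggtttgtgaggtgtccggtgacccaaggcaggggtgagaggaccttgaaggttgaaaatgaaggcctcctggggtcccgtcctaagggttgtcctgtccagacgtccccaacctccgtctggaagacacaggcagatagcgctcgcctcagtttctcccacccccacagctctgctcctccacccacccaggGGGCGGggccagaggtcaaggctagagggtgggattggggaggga
Utf1: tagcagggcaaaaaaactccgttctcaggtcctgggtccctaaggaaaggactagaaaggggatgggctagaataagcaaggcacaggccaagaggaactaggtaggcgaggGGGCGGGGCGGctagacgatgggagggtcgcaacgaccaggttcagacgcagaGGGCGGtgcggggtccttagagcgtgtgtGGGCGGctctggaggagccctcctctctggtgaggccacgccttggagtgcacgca
Zfp42: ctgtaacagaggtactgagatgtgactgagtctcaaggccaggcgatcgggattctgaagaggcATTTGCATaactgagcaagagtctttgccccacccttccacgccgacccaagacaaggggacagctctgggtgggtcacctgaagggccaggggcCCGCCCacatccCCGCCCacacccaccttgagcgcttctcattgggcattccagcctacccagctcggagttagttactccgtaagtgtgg
The motifs were searched on both strands in the full windows. They were the octamer ATGCAAAT bound by OCT factors, the SOX motif letters CTTTGTT and CATTGTT, the GC box GGGCGG, and TCAAGGTCA, bound by ESRRB and NR5A2. The Pou5f1 window shown holds 1 GC box, starting at position -45 from the start site. The Utf1 window holds 4 GC boxes, at -138, -133, -85 and -56, of which the first pair share 1 base. The Zfp42 window holds the octamer, on the reverse strand at -186, and 2 GC boxes on the reverse strand at -91 and -79. Of the 7 genes, 1 (Zfp42) has an exact octamer match and 5 (Pou5f1, Utf1, Zfp42, Klf4 and Sox2) have a GC box. Near matches were not counted. Both Nanog windows hold ttttgcattacaatg, which is close to the reverse complements of the octamer and of CATTGTT. Among 32851 windows of all genes, 1.74% hold the octamer, 35.7% the GC box, 5.85% CTTTGTT, 3.78% CATTGTT and 0.423% TCAAGGTCA. CATTGTT was found in a second Pou5f1 window, starting at 35508557, and CTTTGTT and TCAAGGTCA in none of the 10 windows. A match is a description of letters, and no match says only that they are absent from these windows.

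The sorted fractions asked how each gene follows the Oct4-GFP reporter. Pou5f1, the gene whose regulatory sequence drives the reporter, was at 113.92, 249.78 and 554.77 TPM in GFP-low, GFP-mid and GFP-high. The order of the fractions in RNA was the order of their labels, and whether reads of the transgene add to the Pou5f1 count was not tested. Its estimated counts were 669, 2227 and 3454, which made 83.89, 176.4 and 366.7 CPM. On the log2(CPM + 1) scale the difference was 1.06 from low to mid (95% counting interval 0.95 to 1.20) and 1.05 from mid to high (0.98 to 1.13), near 2-fold at each step. High against low came to 4.37-fold without the pseudocount. The intervals, here and below, are exact Clopper-Pearson intervals of the split of reads between 2 libraries, computed without the pseudocount. They cover counting error only: the cDNA was amplified and carries no molecular identifiers, so reads are not separate molecules. The 3 sorted comparisons share libraries and are given side by side.

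Utf1 followed the same order with a wider span. It was at 3.24, 9.45 and 26.34 TPM in GFP-low, GFP-mid and GFP-high, from 16, 71 and 138 counts. The log2 difference in CPM + 1 was 1.14 from low to mid (0.69 to 2.37), 1.24 from mid to high (0.96 to 1.82) and 2.38 from low to high (2.12 to 3.72), or 7.30-fold without the pseudocount. Of all 12 libraries GFP-low was the lowest for Utf1, separated by counting error from GFP-mid, the next. GFP-high was the highest at 14.65 CPM but was not separated from 0.5 µM UNC0638 at 13.48 CPM. Utf1 and Pou5f1 were the only members at least 2-fold higher at both steps.

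Esrrb and Klf4 were higher in GFP-mid than in GFP-low and did not separate by 2-fold between GFP-mid and GFP-high. Esrrb was at 0.63, 2.37 and 2.70 TPM from low to high, with 13, 74 and 59 counts. Its log2 difference in CPM + 1 was 1.38 from low to mid (0.98 to 2.82) and 0.08 from mid to high (-0.42 to 0.61). Klf4 was at 4.18, 10.68 and 9.72 TPM, with log2 differences of 1.18 (0.87 to 1.74) and -0.21 (-0.54 to 0.09). From low to high Klf4 differed by 0.97, just under the 2-fold limit, or by 2.09-fold without the pseudocount. It passed that limit with a pseudocount of 0.1, at 1.06, with total counts, at 1.06, and with TPM, at 1.05. Sox2 had its highest level in the middle fraction, at 12.62, 21.33 and 16.99 TPM. Its log2 difference was 0.67 from low to mid (0.41 to 0.98) and -0.40 from mid to high (-0.67 to -0.17), both under 2-fold.

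The other 3 genes did not climb with the reporter. Sall4 was at 130.04, 115.94 and 119.66 TPM, and its log2 difference in CPM + 1 from low to high was -0.30 (-0.37 to -0.23). Zfp42 was at 48.23, 51.26 and 44.60 TPM, with a difference of -0.26 (-0.48 to -0.06). Both were slightly lower in GFP-high than in GFP-low by more than counting error. The size depended on the scaling. Sall4 was at -0.21 with total counts and -0.12 with TPM, both outside its interval, and Zfp42 was at -0.11 with TPM. Nanog was at 1.43, 2.31 and 1.80 TPM from 14, 35 and 19 counts, and its interval from low to high, -0.87 to 1.31, did not resolve a direction at this depth.

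**Figure D3:**
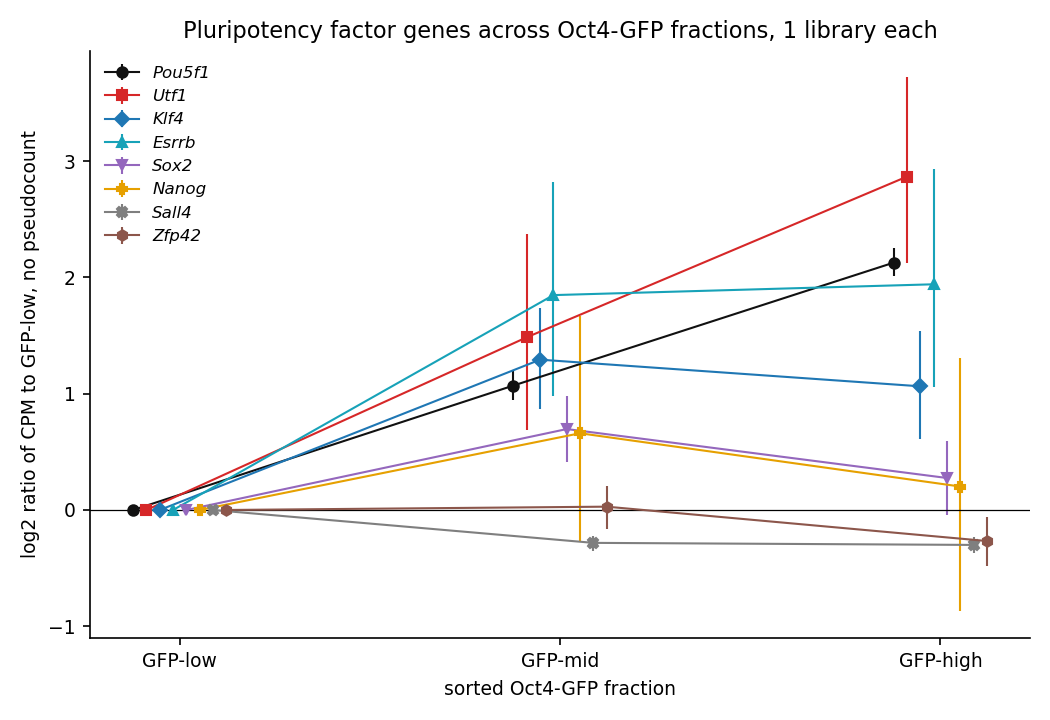
The log2 ratio of CPM to the GFP-low fraction, without pseudocount, for the 8 genes in GFP-low, GFP-mid and GFP-high, 1 library each; bars are 95% counting intervals. Pou5f1 and Utf1 step up at both borders, Esrrb and Klf4 at the first, and Sall4 and Zfp42 end slightly below GFP-low.

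Read against all genes, 4 of the 8 (Pou5f1, Klf4, Utf1 and Esrrb) were at least 2-fold higher in GFP-mid than in GFP-low, where 4.07% of the 14301 tested genes differed by 2-fold in either direction and 3.38% were higher. From mid to high, 2 of the 8 (Pou5f1 and Utf1) were 2-fold higher, against 2.85% of all genes in either direction and 1.32% higher. From low to high the count was 3 (Pou5f1, Utf1 and Esrrb), against 9.54% in either direction and 6.94% higher. No member was 2-fold lower at any step. With a pseudocount of 5, which shrinks the ratios of low genes, 1 member (Pou5f1) was called from low to mid and 1 (Pou5f1) from mid to high, and from low to high Esrrb dropped out at 0.76 while Utf1 was at 1.49. The median log2 difference of the 8 was 0.62 from low to high and -0.02 over all genes. Pou5f1 is in each of these counts and in the median, though the fractions were sorted on its own reporter. Its rise is therefore not independent of the sort. Without Pou5f1 the genes called were Klf4, Utf1 and Esrrb from low to mid and Utf1 from mid to high. From low to high they were Utf1 and Esrrb. Myeloid genes moved across the same fractions: 12 of 12 were at least 2-fold lower in GFP-high than in GFP-low, with a median of -2.95, and Lyz2 was at 2239, 2073 and 298.8 TPM. Fibroblast genes were higher with the reporter: 9 of 19 were at least 2-fold higher and 0 lower from low to high, with a median of 0.74, and their sum was 33.96, 49.89 and 88.93 TPM. The part of either list in these differences was not tested. The germ cell markers had a median of 0.07 from low to high, and 0 of 19 were called.

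Pou5f1, Sox2 and Zfp42 had their 3 highest CPM in the sorted fractions, and the other 5 genes did not. For Zfp42, GFP-high at 39.81 CPM was not separated from day 4 at 38.51 CPM. Ordered by CPM over the 12 libraries, the first 3 places for Pou5f1 were the sorted fractions, and the counting intervals separated GFP-high from GFP-mid and GFP-mid from GFP-low. GFP-low at 83.89 CPM was not separated from the epithelial-like culture at 76.98 CPM. The unsorted mesenchymal-like culture, grown at the same Matrigel density as the fractions, was at 61.12 TPM of Pou5f1, below all 3 of them. For Sox2, too, the fractions took the first 3 places, with GFP-mid separated from GFP-high, GFP-high not from GFP-low, and GFP-low from the epithelial-like culture. Experiment and sorting cannot be told apart here.

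Genes related to the members behaved unevenly across the fractions. The counts below stand against 6.94% of all genes 2-fold higher and 2.59% 2-fold lower from GFP-low to GFP-high. In the network list, 2 of 20 tested genes were 2-fold higher in GFP-high than in GFP-low, 1 was lower, and the median log2 difference was 0.08. Klf2, a naive-state Krüppel-like factor, was at 1.90, 2.50 and 11.99 TPM, with a low-to-high log2 difference in CPM + 1 of 1.96 (1.65 to 3.47). Klf5, a factor with overlapping roles, was at 3.60, 12.29 and 16.24 TPM, with a difference of 1.75 (1.42 to 2.66). Tcl1, an AKT coactivator and OCT4 target in embryonic stem cells, ran the other way at 256.0, 127.4 and 93.1 TPM, with a difference of -1.60 (-1.75 to -1.48). Pou5f1 and Tcl1 thus went in opposite directions across the same 3 libraries.

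Among 30 tested paralogs of the members (other POU, SOX, KLF, SALL, ESRR and related genes), 10 were 2-fold higher in GFP-high than in GFP-low and 0 were lower, with a median of 0.48. Sox3 had 0, 8 and 50 counts from low to high. Pou3f1, a POU factor of the primed state and of spermatogonial progenitors, was at 3.71, 11.94 and 14.43 TPM, with a low-to-high log2 difference in CPM + 1 of 1.53 (1.16 to 2.50). Sox4 was at 15.12, 36.88 and 44.71 TPM, with a difference of 1.38. The other 7 were Klf2, Klf5, Pou2f2, Sox9, Klf9, Klf13 and Yy1. Of the 6 primed-state genes tested, 2 were higher (Sox3 and Pou3f1) and 1 lower (T, Brachyury, at 8.44, 4.79 and 2.82 TPM). Among 17 regulators of Pou5f1, only Hdac2, a histone deacetylase, was 2-fold higher, at 159.5, 355.1 and 375.4 TPM with a difference of 1.08. For the regulators, and for the 2 of 20 network genes, the share higher was near that of all genes.

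Stage markers of spermatogonia give the setting of these fractions. Of 15 markers of undifferentiated spermatogonia, 6 were at least 2-fold lower in GFP-high than in GFP-low and 2 were higher, with a median log2 difference of -0.56. Lower ones included Gfra1, the GDNF co-receptor, at 92.04, 43.7 and 34.03 TPM, and Etv5, a GDNF-responsive factor, at 268.8, 146.0 and 108.1 TPM. The higher ones included Foxo1, a factor of the stem cell pool, at 25.25, 64.38 and 138.3 TPM. Of 13 genes listed here for differentiating spermatogonia, 4 were higher and 0 lower, with a median of 0.67. Not all genes of this list are restricted to that stage, so its median does not measure differentiation alone. Stra8, a retinoic acid response gene, was at 83.54, 172.5 and 247.2 TPM, and Kit, the receptor that marks differentiating spermatogonia, at 20.08, 25.02 and 46.53 TPM.

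The genes most like a member were sought among 9597 genes whose mean reached 10 CPM, by the root mean square (RMS) difference of log2(CPM + 1) after removing each experiment's mean, over 12 libraries. Only Pou5f1, Sox2 and Klf4 were abundant and variable enough to be compared. The 5 genes closest to Pou5f1 were Ly6g6e at an RMS of 0.171, Clstn1 at 0.185, Npffr1 at 0.207, Rcor2 at 0.213 and Ccnjl at 0.214, where the median gene was at 0.499. Ly6g6e was at 6.395, 10.06 and 18.68 CPM across the fractions, Clstn1 at 42.01, 66.36 and 151.9 CPM, and Rcor2, a corepressor subunit, at 11.91, 34.92 and 53.61 CPM. Those closest to Sox2 were Emb, Zfp445, Ifi44, Clu and Oma1, at 0.143 to 0.16. Sox2 entered this comparison with a mean of 10.36 CPM through the sorted fractions, and Ifi44 through the day libraries, at 39.44 to 51.66 CPM against at most 1.797 CPM elsewhere, so these likenesses rest partly on values near the floor. Those closest to Klf4 were Akap9, Eif5b, Ppp1r9b, 4930599N23Rik and Cdc2l5, at 0.139 to 0.169. In the order of likeness to Pou5f1, Klf4 was at place 1526, Sox2 at 4150, Zfp42 at 5124 and Sall4 at 5752. With centring on the mean of all 12 libraries instead, Klf4 was at 3371, Sox2 at 399, Zfp42 at 541 and Sall4 at 2772. Utf1, Nanog and Esrrb were below 10 CPM on average and were not ranked.

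Feeder removal left the 8 genes within 2-fold of day 0. Both days share the day 0 library. None of the 8 was called at day 4, where 2.28% of all genes were, or at day 9, where 2.6% were. Pou5f1 was at 84.66, 84.12 and 72.38 TPM at days 0, 4 and 9, and its log2 difference in CPM + 1 was -0.03 (-0.20 to 0.14) at day 4 and -0.34 (-0.52 to -0.17) at day 9. Nanog was at 7.01, 3.94 and 4.50 TPM from 68, 58 and 64 counts, the highest of its 12 values being day 0. Its difference was -0.73 (-1.38 to -0.32) at day 4 and -0.66 (-1.28 to -0.25) at day 9, beyond counting error but under 2-fold. Klf4 was at 6.92, 4.31 and 6.81 TPM, lower at day 4 by -0.63 (-1.14 to -0.26) and near day 0 at day 9, at -0.13 (-0.54 to 0.26). The fibroblast sum was 145.2, 148.9 and 121.6 TPM over these days. Sox2 at 4.45 to 4.68 TPM, Zfp42 at 35.88 to 39.23 TPM and Esrrb at 0.55 to 0.60 TPM spanned at most 0.13 on the log2 CPM + 1 scale, and Utf1 was at 17.64, 14.72 and 14.33 TPM. In the network list, Dppa2 was 2-fold higher at day 4 and at day 9, and Tet2, listed under an older clone name, at day 9.

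Matrigel density gave no 2-fold difference in any of the 8 genes, while 12.5% of all genes differed by 2-fold. Pou5f1 was at 93.84 TPM in the epithelial-like culture and 61.12 TPM in the mesenchymal-like one, a log2 difference in CPM + 1 of -0.57 (-0.83 to -0.32), or -0.27 after centring on the germ cell markers. Esrrb was lower in the same direction, at 2.00 and 0.82 TPM from 24 and 10 counts, with a difference of -0.96 (-2.45 to -0.10). Without the pseudocount Esrrb was 2.33-fold lower. Utf1 was higher, at 9.12 and 14.89 TPM, with a difference of 0.66 (0.02 to 1.49). Sall4 at 118.99 and 102.60 TPM differed by -0.12 (-0.23 to -0.02), which turned to 0.17 with that centring, and Zfp42, Klf4, Sox2 and Nanog had intervals that included no difference. In this comparison 18 of 19 tested fibroblast genes were 2-fold higher in the mesenchymal-like culture, and the median of 19 germ cell markers was -0.30. Their part in the lower Pou5f1 was not tested. Klf4 was at 12.91 CPM in the epithelial-like and 15.21 CPM in the mesenchymal-like culture, a log2 difference of 0.22 (-0.31 to 0.79). In the network list 4 of 20 genes were higher (Klf2, Klf5, Tbx3 and Myc), where 1527 of the 14301 tested genes were. Myc was highest at a log2 difference of 2.62, and the list median was -0.25. Klf2 rested on 3 counts in the epithelial-like culture, at the floor, and 11 in the mesenchymal-like one.

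**Figure D4:**
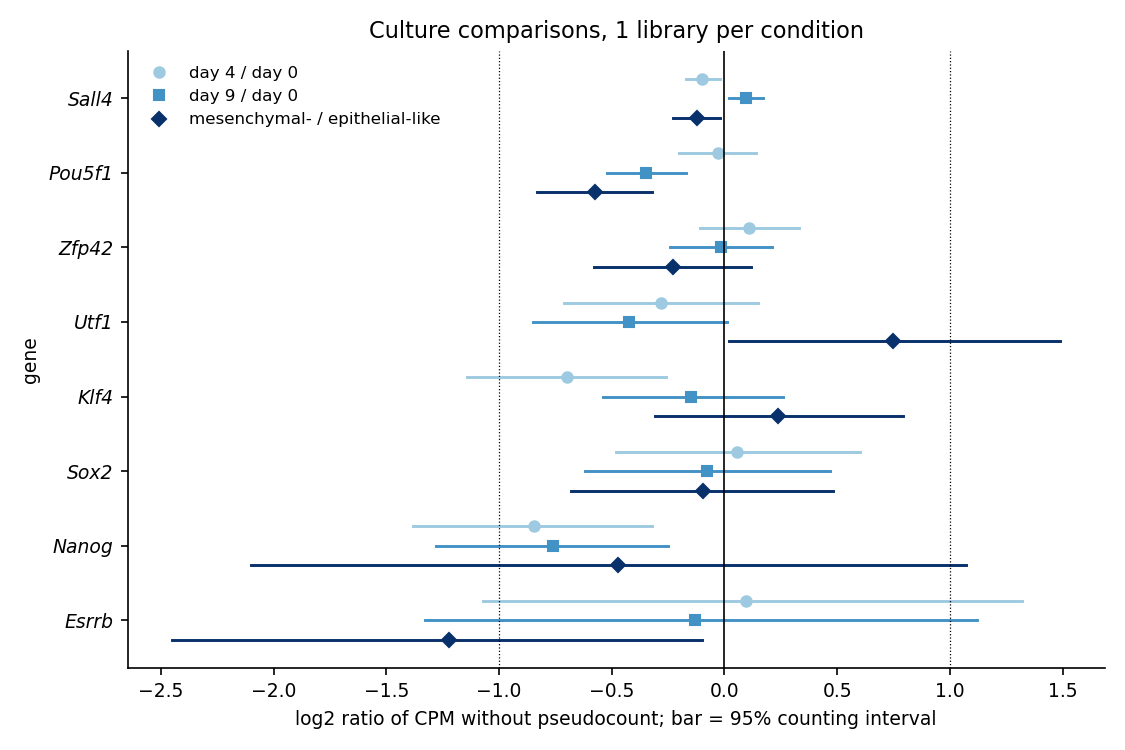
The log2 ratio of CPM without pseudocount of days 4 and 9 to day 0, and of the mesenchymal-like to the epithelial-like culture, for the 8 genes; points are 1 library against 1 library, bars are 95% counting intervals, and dotted lines mark 2-fold. Esrrb in the density comparison is the 1 point past a dotted line, at 0.429 times the epithelial-like CPM.

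G9a inhibition was compared with the shared DMSO library at each dose. UNC0638 left Pou5f1 near its DMSO level: it was at 59.47 TPM with DMSO and at 73.09, 57.97 and 61.49 TPM with 0.5, 1 and 2 µM. Its log2 differences in CPM + 1 were 0.30 (0.04 to 0.56), -0.01 (-0.28 to 0.25) and 0.09 (-0.19 to 0.37). Sox2 was the 1 member called. It was at 3.22 TPM with DMSO and at 2.29, 1.09 and 1.25 TPM with rising dose, from 23, 17, 9 and 8 counts. The differences were -0.39 (-1.48 to 0.48), -1.12 (-2.84 to -0.38) and -0.98 (-2.70 to -0.11), with 1 µM past 2-fold and 2 µM just short of it. Without the pseudocount Sox2 was 2.51-fold lower at 2 µM, and with a pseudocount of 5 it was not called at 1 µM. All 3 treated libraries lay below the DMSO library, and the 4 were the lowest of the 12 for Sox2.

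Klf4 and Esrrb were highest at the top dose. Klf4 was at 7.27 TPM with DMSO and at 7.55, 5.97 and 12.17 TPM with 0.5, 1 and 2 µM, and its log2 difference at 2 µM was 0.74 (0.30 to 1.27). Esrrb was at 1.41, 1.72, 1.55 and 2.53 TPM in the same order, with an interval at 2 µM of -0.01 to 1.82. Nanog was at 2.87, 1.94, 1.51 and 1.39 TPM, and its interval included no difference at each dose. Sall4 was within 0.24 of DMSO on the log2 scale, at 0.16, -0.24 and -0.15, each beyond counting error. Utf1 was at 14.61 to 21.56 TPM and Zfp42 at 26.48 to 28.95 TPM over the 4 libraries, with every interval including no difference.

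The counts of members called were 0 of 8 at 0.5 µM, 1 lower at 1 µM and 0 at 2 µM. The shares of all genes called were 3.71%, 6.71% and 7.01%, and at 1 µM 4.12% of all genes were lower. Across the doses the 19 tested fibroblast genes had median log2 differences of -1.35, -2.68 and -2.09, with 12, 19 and 17 of them 2-fold lower, and the germ cell list had medians of 0.13, 0.10 and -0.05. Whether RNA from feeder cells contributes to the Sox2 and Klf4 values was not tested. In the network list Klf5 was 2-fold higher at 1 and 2 µM, by 1.06 (0.61 to 1.69) and 1.03 (0.55 to 1.69). Myc, a proliferation factor, was at -1.01, -0.93 and -1.31 at 0.5, 1 and 2 µM, and Gdf3, a TGF-beta family ligand, at -1.08, -0.94 and -0.73, so both lay near the 2-fold limit. Tet2, listed under an older clone name, was lower at 1 and 2 µM, at -1.17 (-3.40 to -0.38) and -1.10 (-3.43 to -0.17), from 18 counts with DMSO and 6 and 5 at those doses. The list medians were 0.03, 0.04 and 0.05.

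**Figure D5:**
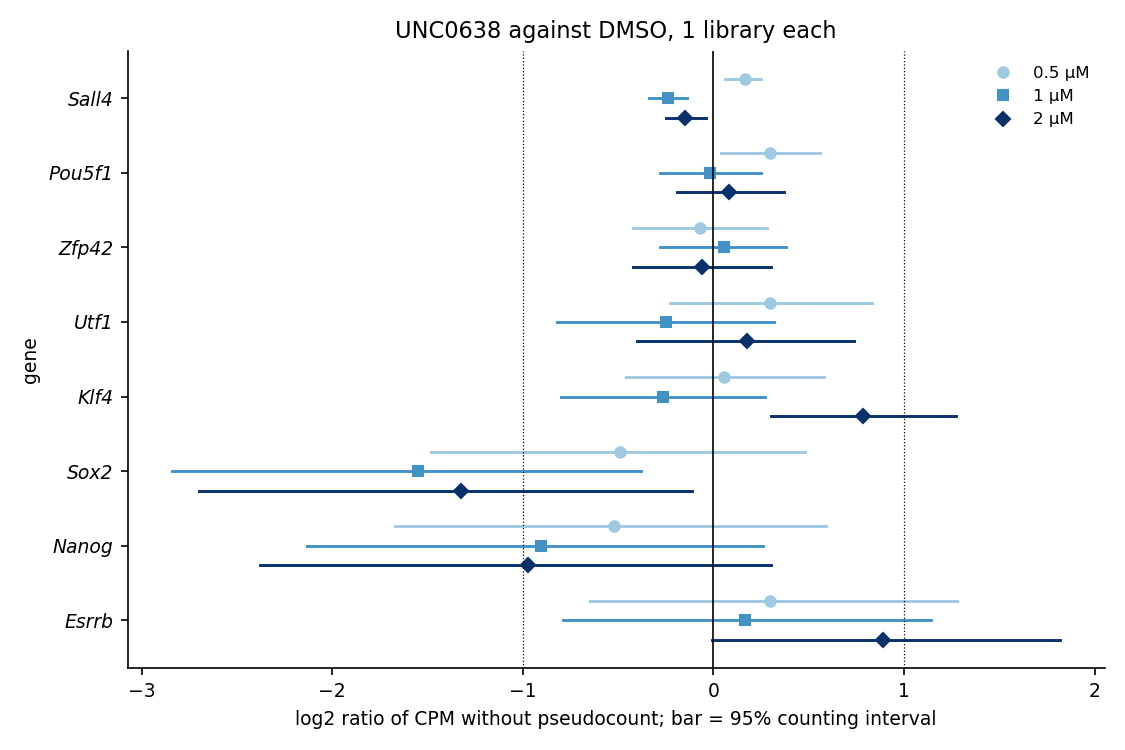
The log2 ratio of CPM without pseudocount of each UNC0638 dose to DMSO for the 8 genes; points are 1 library against 1 library, bars are 95% counting intervals, and dotted lines mark 2-fold. Pou5f1 lies near 0 at each dose, and Sox2 lies past the lower dotted line at 1 and 2 µM.

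Cultures on feeders without inhibitor occurred in both the feeder-removal and the inhibitor experiment, with 1 library in each. With DMSO against day 0, 1 of the 8 members was called, against 19.4% of all genes in either direction and 7.22% lower. It was Nanog, at 2.87 against 7.01 TPM, with a log2 difference in CPM + 1 of -1.10 (-2.13 to -0.53). Nanog was no longer called after centring on the germ cell markers, whose median was -0.61, at -0.49, or with a pseudocount of 5, at -0.69. Esrrb, at 1.41 against 0.56 TPM, was at 0.92 and passed 2-fold after that centring, at 1.53. In the same comparison 17 of 19 fibroblast genes were 2-fold higher with DMSO, with a median of 2.85 and sums of 1183 against 145.2 TPM. Of 15 markers of undifferentiated spermatogonia 7 were higher, with a median of 0.97, where 1743 of the 14301 tested genes were higher. The fibroblast and undifferentiated lists share a gene that is counted as higher in both. The part of these lists in the differences of the members was not tested. Pou5f1 was at 59.47 against 84.66 TPM, a difference of -0.50 (-0.75 to -0.28), which turned to 0.11 after the same centring. Before centring, that gap between feeder cultures was larger than the difference of Pou5f1 at any UNC0638 dose, and DMSO, experiment and library cannot be told apart in it.

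Sall4 is the 1 member with more than 1 transcript in the tables, and its transcript-weighted length differed between experiments while its level stayed close. The length was 4195.6, 4395.25 and 4470.37 bases at days 0, 4 and 9, 4801.27 and 4895.55 in the density cultures, 5073.0, 4891.62 and 4976.84 from GFP-low to GFP-high, and 4550.39 to 4913.58 in the inhibitor experiment. The longest was 1.21 times the shortest. Among 537 genes with several transcripts and at least 10 TPM in every library, the median of this ratio was 1.01, and 93.9% had a smaller ratio than Sall4.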

How the data were processed

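RNA of 12 libraries was prepared with a modified Smart-seq2 procedure, per the labels' protocols. The submitters' processing notes name Trim Galore, RSEM and the build mm10; versions, aligner, annotation release and strand setting are not given in the sources used here. The authors deposited 1 table per library, and per the file headers it holds an expected count, a TPM and transcript-weighted and effective lengths in bases for each gene. The expected counts are estimated counts as the authors deposited them, without normalization, and the TPM are scaled by the authors to length and a fixed total, per the file headers. The lengths were deposited by the authors in bases. Expected counts were not whole for 8.52% to 10.7% of the genes of a library (tolerance 0.005).

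The expected counts were rounded and scaled to CPM with TMM factors from edgeR 4.0.16 (R 4.3.3) over the 12 libraries, which ranged from 0.912 to 1.07. Only genes averaging 1 CPM or more were kept. A difference is the log2 ratio of CPM + 1, which understates the difference of low genes, and a gene was called at 2-fold or more. Intervals are 95% Clopper-Pearson intervals, and they and the floor of 3 counts cover counting error only. With 1 library per group, the spread between replicates could not be estimated, and no test across samples, such as a trend with dose or day, was run. The steps were tested on simulated counts. Alternatives were total counts or DESeq2 1.42.0 size factors for scaling, TPM in place of CPM, other pseudocounts, other filters, centring on germ cell genes, other centring for likeness, and level bands by CPM. Scripts ran in Python 3.11.15 (scipy 1.17.1, pandas 2.3.3, matplotlib 3.10.9 and numpy 2.4.6).

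The members, the gene lists and the rules were chosen with earlier results of these data known. Genes named are the 8 members, genes of the 11 lists (network, primed state, paralogs, regulators of Pou5f1 and 7 lists of cell type markers), and the 5 genes closest to a member. One marker of the germ cell list (Gtsf1), one of the differentiating list (Rhox13), one of the somatic testis list (Rhox5) and Tet1 were not matched. One listed gene is not reported here by name. Promoters and positions were taken from RefSeq tables of GRCm38.p6. No 2 tables held identical values.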

Additional observations from a re-analysis of the deposited data

How the results depend on the processing

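With a pseudocount of 0.1 in place of 1, the number of the 8 members called became 1 for the density cultures (0 in the report, now Esrrb), 1 at 2 µM UNC0638 (0, now Sox2) and 2 for DMSO against day 0 (1). From GFP-low to GFP-high it was 4 in place of 3, Klf4 being added, with a pseudocount of 0.1, with total counts and with TPM, and 2 with a pseudocount of 5. With a pseudocount of 5 it also became 1 for GFP-mid against GFP-low (4), 1 for GFP-high against GFP-mid (2), 0 at 1 µM (1) and 0 for DMSO against day 0 (1). With a filter at 10 CPM, which leaves 5 members, it became 2, 1 and 1 for mid against low, high against mid and high against low, and 0 for DMSO against day 0. Of the 15 genes named as most like a member, 1 was also found with centring on all 12 libraries. Of 480 alternative values of single ratios, 21 moved outside their counting interval and 0 of the 2-fold calls changed sign. Among smaller differences, centring on the germ cell list turned Sox2, Sall4 and Zfp42 in the density cultures to 0.21, 0.17 and 0.07 and Pou5f1, Sox2 and Zfp42 for DMSO against day 0 to 0.11, 0.21 and 0.28, and the TPM turned Sall4 for DMSO against day 0 to -0.11. The other changes of sign were of differences within 0.07 of 0. With level sets by CPM in place of TPM, 3 genes were again on in every library, but Klf4 was on in 10 (2 by TPM), Sox2 in 5 (3) and Utf1 in 6 (9), and Esrrb was at trace level in 0 (5). No paired analysis was possible because each RNA group has 1 library.

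The number of all genes called moved by more than 1.5 times under some settings. With a pseudocount of 0.1 it was 1031 at day 4 (326 in the report), 1025 at day 9 (372), 1267, 928 and 2150 for mid against low, high against mid and high against low (582, 407 and 1364), and 1169, 1656 and 1751 at 0.5, 1 and 2 µM (531, 960 and 1003). With a pseudocount of 5 the same 8 comparisons gave 17, 30, 182, 98, 521, 76, 302 and 228, the density cultures 1004 (1781) and DMSO against day 0 1299 (2776). With a filter at 10 CPM they gave 29, 84, 280, 100, 622, 96, 303 and 285, the density cultures 680 and DMSO against day 0 1507. After centring on the germ cell list the median of all genes was 0.24 in the density cultures (-0.06 before), -0.14 at 0.5 µM (-0.01) and 0.62 for DMSO against day 0 (0.01), where 4610 genes were then called and the 1 member called was Esrrb, higher, in place of Nanog, lower. The share of called genes that were higher became 95.9% (85.7%), 24.7% (42.6%) and 94.7% (62.8%) in these 3, and 28.5% (38.6%) at 1 µM. With a pseudocount of 5 it became 23.3% (62.4%) at day 9, 98.8% (85.7%) in the density cultures, 24.5% (46.4%) for high against mid and 21.1% (42.6%) at 0.5 µM. With no filter the share of all genes called was 1.7% to 11.3%, for example 5.77% (9.54%) for high against low and 11.3% (19.4%) for DMSO against day 0, since more genes were in the denominator. With TPM that median was 0.13 at day 9 (0.02) and 0.11 for high against low (-0.02). Low counts limit Nanog, Esrrb, Sox2 and Utf1 most.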
